A study of Saccharomyces cerevisiae with 16 samples.

Results

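The genes described here encode enzymes that make amino acids in budding yeast (Saccharomyces cerevisiae). They cover 40 genes of 7 pathways: 5 for histidine, 6 for lysine, 10 for the branched-chain amino acids, 10 for the aromatic amino acids, 5 for threonine, 2 for asparagine and 2 for serine. They were chosen by gene symbol and pathway, without genes used as strain markers, out of 5449 S. cerevisiae genes with a named probe set. Each of the 40 was represented by 1 probe set, and all 40 were among the 4360 genes left after the dimmest 20% of genes had been set aside.

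Most of these enzymes work in linear routes that start from central metabolites. The route to histidine starts from phosphoribosyl pyrophosphate, lysine is made from 2-oxoglutarate through alpha-aminoadipate, and the aromatic amino acids are made through chorismate. Threonine is made from aspartate and is itself the entry to isoleucine. Many of the genes are textbook targets of the activator Gcn4, which accumulates when amino acids run short. Gcn2 is the kinase that starts this response, called general amino acid control.

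Affymetrix Yeast Genome 2.0 arrays were used, with 1 sample on each. The strain used here is labelled as a Taf4 anchor-away strain. Taf4 is a subunit of TFIID, the general factor that brings the TATA-binding protein to promoters. In anchor-away, rapamycin bridges an FRB-tagged nuclear protein and an FKBP12-tagged ribosomal protein, which takes it out of the nucleus. The 4 groups used, of 2 samples each, were newly synthesized RNA with rapamycin, newly synthesized RNA with DMSO, steady-state RNA with rapamycin and steady-state RNA with DMSO. All of them share the W303 background, the MATalpha mating type, the rapamycin-resistant tor1-1 allele, a disrupted FPR1 (fpr1::NAT), the anchor RPL13A-2xFKB12::TRP1 and TAF4-FRB::HYGRO. Cells grew in the rich medium YPD. Rapamycin was present for 30 min, and 4-thiouracil at 5 mM then marked new RNA for 6 min. The stated dose of rapamycin is 1 µg/mL in the protocol and 5 µM in the design text. Newly synthesized RNA is the labelled RNA purified from total RNA, and steady-state RNA is the total. Labelled fission yeast (Schizosaccharomyces pombe) cells were mixed in at 1 part to 3 parts as a spike-in. No strain without a tagged TFIID subunit received rapamycin, so drug and depletion effects cannot be told apart.

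Some of the deposited columns go against their labels. Of the 16 value columns, 10 are distinct. Among the 8 columns with a Taf5 label, 6 hold the values of a Taf4-labelled column at a scale lower by a factor of 5, under the other RNA fraction's label. The genotype label of every sample names TAF4-FRB. Only newly synthesized DMSO replicate 2 and steady-state rapamycin replicate 2 have no copy, so no comparison can be made without copied columns. Groups are therefore named as the Taf4 labels name them, and the Taf5-labelled columns were not used. Which fraction label is right could not be settled. If the 2 fractions were exchanged on these arrays, the results given for each would swap and every difference of newly synthesized from steady-state RNA would change sign. Over all probe sets, the steady-state rapamycin arrays had Spearman's rho of 0.948 to 0.968 with the newly synthesized DMSO arrays. With the steady-state DMSO arrays rho was 0.861 to 0.933. Whether the steady-state comparison sets unlike material side by side was not tested. Whether replicates were separate cultures is not labelled, and the spread behind the p-values may be technical only. Signals of the alpha-cell markers MF(ALPHA)1, MF(ALPHA)2 and STE3 ran from 362 to 12645, whereas the a-cell markers MFA1, MFA2 and STE2 lay between 10.5 and 69.2 and below the filter. TAF4 itself had 42.2 and 56.6 signal units in newly synthesized RNA with rapamycin, against 127 and 121 with DMSO. TAF4 and TAF5 RNA fell with rapamycin 2.54-fold and 1.57-fold in newly synthesized RNA, and 2.83-fold and 2.64-fold in steady-state RNA. The tag acts on the protein's location, so these RNA levels do not check the depletion.

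Changes are given as log2 of rapamycin over DMSO, with the standard error of the limma fit over 8 arrays. Each array was set to the same median S. pombe signal. A gene is called when its adjusted p (Benjamini-Hochberg over 4360 genes) is under 0.05. Signals are in array units after that shift, and they are comparable between arrays for 1 gene but not between genes. In RNA from whole cultures, fewer cells and less RNA per cell cannot be told apart.

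In newly synthesized RNA, 29 of the 40 genes fell with rapamycin and 0 rose. Across all genes tested 79.4% fell and 1.79% rose, so the members were called lower at about the rate of the genome. The median change of the members was -0.57, a 1.49-fold fall, against -0.78 for all genes. 29 of the 40 lay above that all-gene median, and 4 fell by more than 2-fold. In steady-state RNA 35 fell and 0 rose, where 86.8% of all genes fell and 1.42% rose. The median was -0.91 against -1.17 for all genes, 25 of the 40 lay above the all-gene median, and 18 fell by more than 2-fold. A loess curve was also fitted to the S. pombe probe sets in place of a single shift. The steady-state distance between members and all genes was then 0.03 instead of 0.26, with medians of -1.48 and -1.51. With this curve 40 of the 40 members were called lower in steady-state RNA. The share of all genes called lower with it is not given here.

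Calls held more often in steady-state RNA when arrays were left out. 27 genes were called lower in both fractions, 2 (HIS1 and ILV6) in newly synthesized RNA and not in steady-state RNA, 8 the other way round, and 3 (HIS4, ILV5 and ASN1) in neither. This split depends on the fit, which uses 1 spread per gene for both fractions. Fitted on each fraction's 4 arrays alone, 34 members were called lower in newly synthesized RNA and 31 in steady-state RNA. The share of all genes called that way is not given here. Of the 29 calls in newly synthesized RNA, 13 held when any 1 of the 4 arrays of that comparison was left out. 15 were lost without DMSO replicate 2, 7 without DMSO replicate 1, 12 without rapamycin replicate 1 and 12 without rapamycin replicate 2. The calls lost without at least 1 array were those of HIS1, HIS5, HIS7, LYS1, LYS21, ILV3, ILV6, TRP3, TRP5, ARO2, ARO3, ARO8, HOM2, THR1, THR4 and SER1, with adjusted p-values up to 0.276. Of the 35 steady-state calls 29 held in the same exercise, and no array cost more than 4. The steady-state calls of THR4 and SER1 were lost without DMSO replicate 2 or rapamycin replicate 1. The 2 rapamycin arrays lay entirely on one side of the 2 DMSO arrays for 36 genes in newly synthesized RNA and 38 in steady-state RNA. For all genes tested those shares were 95.9% and 93.7%.

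The direction of these changes depends on the scaling. When arrays were set to equal S. cerevisiae medians instead, which removes a change common to all genes, 1 member (LYS4) was lower and 10 were higher in newly synthesized RNA, where 8.92% of all genes were lower and 15.6% higher. In steady-state RNA 6 members were lower and 21 higher, where 18.1% of all genes were lower and 32.0% higher. Falls below are thus falls relative to the spike-in.

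**Figure D1:**
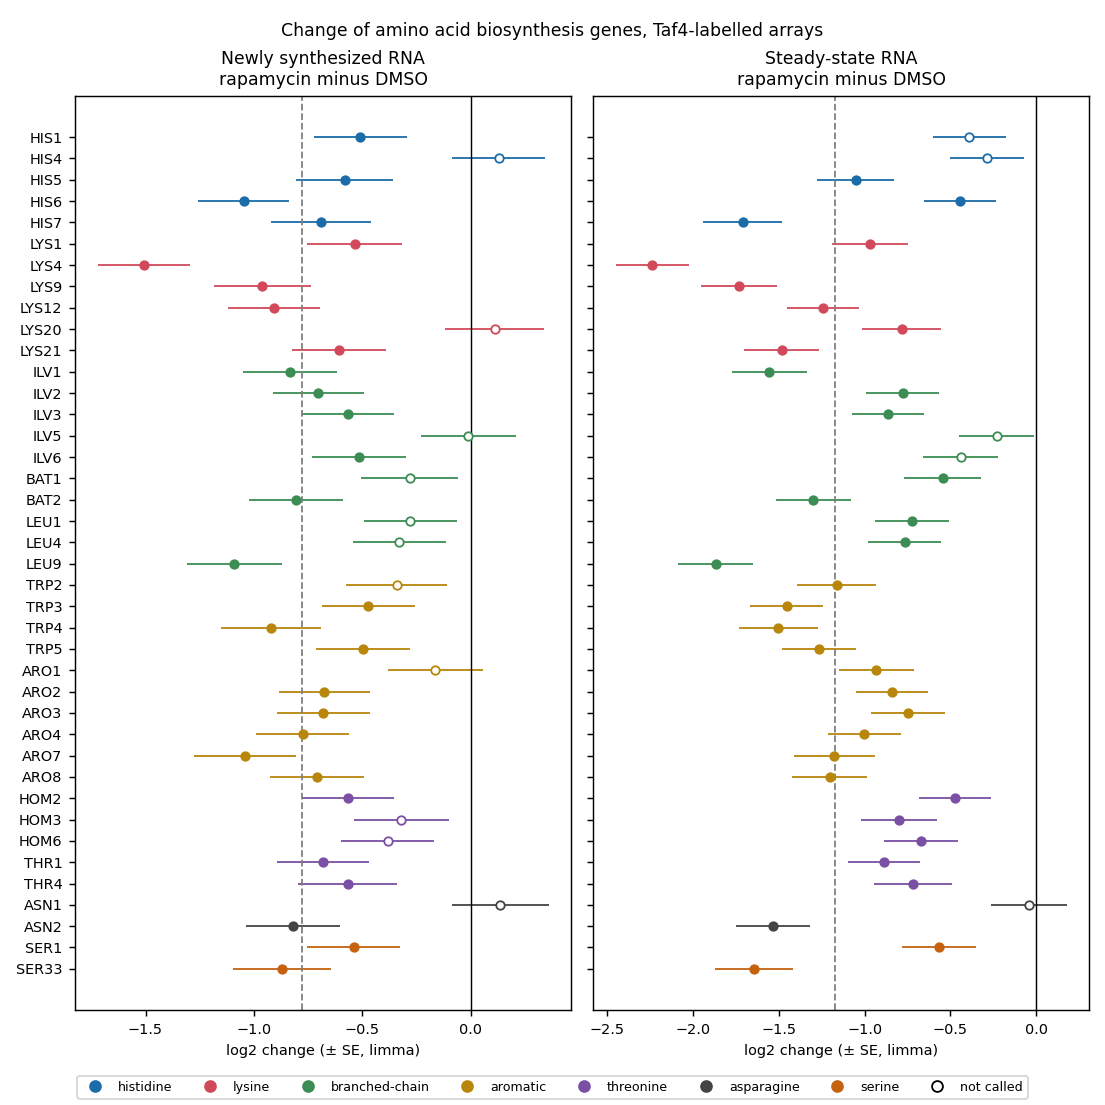
Log2 change of each of the 40 genes with rapamycin against DMSO, in newly synthesized RNA (left) and steady-state RNA (right). Points are limma estimates, bars are standard errors, open points were not called, and dashed lines mark the median of all 4360 genes (-0.78 and -1.17). HIS4, ILV5 and ASN1 stay near 0 in both panels, and LYS4 is farthest to the left.

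**Figure D2:**
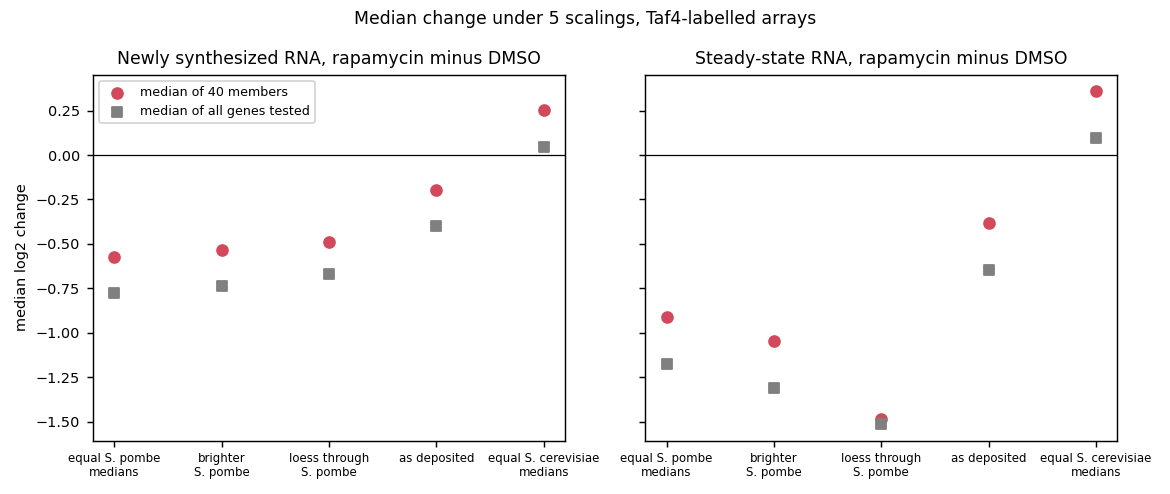
Median log2 change of the 40 members (circles) and of all genes tested (squares) under 5 ways of scaling the arrays. Members lie above all genes in each case, by 0.03 for steady-state RNA under loess, and both medians pass 0 when S. cerevisiae medians are made equal.

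Histidine genes had the smallest median fall of the 7 pathways in steady-state RNA. 4 of 5 fell in newly synthesized RNA (median -0.58) and 3 of 5 in steady-state RNA (median -0.44), relative to the spike-in. With equal S. cerevisiae medians both medians turned positive (0.24 and 0.82).

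HIS4 (YCL030C), whose protein carries out several steps of the pathway including the last, had 626 and 660.1 signal units in newly synthesized RNA with rapamycin, against 549.8 and 628 with DMSO. Steady-state signals of HIS4 were 849 and 1011 with rapamycin, against 1078 and 1184 with DMSO. The arrays of the 2 treatments overlapped in newly synthesized RNA and lay apart in steady-state RNA, and neither change was called (0.13 ± 0.21, adjusted p = 0.56, and -0.29 ± 0.21, adjusted p = 0.20). Of all genes tested, 96.7% had a lower change than HIS4 in newly synthesized RNA and 91.4% in steady-state RNA.

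HIS6, which encodes an isomerase in the middle of the pathway, had 219.6 and 211 signal units in newly synthesized RNA with rapamycin, against 449 and 441 with DMSO. In steady-state RNA, HIS6 had 239 and 236 with rapamycin, against 336 and 311 with DMSO. Both rapamycin arrays were low in each fraction. The fall was 1.05 ± 0.21 on the log2 scale in newly synthesized RNA (adjusted p = 8.7e-05) and 0.44 ± 0.21 in steady-state RNA (adjusted p = 0.047), and the second call was lost without any of 3 of its 4 arrays. HIS6 was 1 of 4 members whose change was lower in newly synthesized RNA.

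HIS7, the glutamine amidotransferase and cyclase that forms the imidazole ring, had 237 and 238 units in newly synthesized RNA with rapamycin, against 362 and 405 with DMSO. Steady-state signals of HIS7 were 349 and 528 with rapamycin, against 1179.7 and 1678 with DMSO. The groups were far apart in steady-state RNA, where HIS7 fell by 1.71 ± 0.23 (3.28-fold, adjusted p = 4.4e-08). In newly synthesized RNA the fall was 0.69 ± 0.23 (adjusted p = 0.0075). HIS1, the ATP phosphoribosyltransferase of the first step, fell in newly synthesized RNA (-0.51, adjusted p = 0.029) and changed by -0.39 in steady-state RNA (adjusted p = 0.084). HIS5, the histidinol-phosphate aminotransferase, fell in both (-0.58 and -1.05).

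Lysine genes had the largest median fall of the 7 pathways in steady-state RNA. 5 of 6 fell in newly synthesized RNA (median -0.76) and 6 of 6 in steady-state RNA (median -1.36). With equal S. cerevisiae medians the newly synthesized median turned to 0.07 and the steady-state median was -0.09.

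LYS4 (YDR234W), the homoaconitase, had the largest fall of all 40 in both fractions. It is among the dimmer members and is left out when the dimmest 40% of genes are dropped. It had 101 and 93.7 signal units in newly synthesized RNA with rapamycin, against 272 and 281 with DMSO. In steady-state RNA, LYS4 had 134 and 119.8 with rapamycin, against 561 and 634 with DMSO. Replicates sat close together and the treatments far apart. The fall was 2.84-fold in newly synthesized RNA (-1.51 ± 0.21, adjusted p = 1.2e-06) and 4.71-fold in steady-state RNA (-2.24 ± 0.21, adjusted p = 1.9e-10). Of all genes tested 2.25% and 1.38% had a lower change. It was also lower with equal S. cerevisiae medians, by 0.68 and 0.97 on the log2 scale (adjusted p = 0.013 and 9.6e-04).

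Homocitrate synthase, which commits carbon to lysine, is encoded by the paralogs LYS20 and LYS21. LYS20 (YDL182W) had 992 and 945 units in newly synthesized RNA with rapamycin, against 892 and 901 with DMSO. In steady-state RNA, LYS20 had 1401 and 1929 with rapamycin, against 2249 and 3565 with DMSO. The rapamycin arrays were thus the higher ones in newly synthesized RNA and the lower ones in steady-state RNA, but only the steady-state change was called (0.11 ± 0.23, adjusted p = 0.65, and -0.78 ± 0.23, adjusted p = 0.0021), and it was lost without steady-state DMSO replicate 2 (adjusted p = 0.087). LYS21 had 334 and 306 units in newly synthesized RNA with rapamycin, against 471 and 504 with DMSO. Steady-state signals of LYS21 were 424 and 528 with rapamycin, against 1169 and 1499 with DMSO. LYS21 fell in both fractions (-0.61 ± 0.22, adjusted p = 0.012, and -1.48 ± 0.22, adjusted p = 2.0e-07).

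Among the other lysine genes, LYS12, the homoisocitrate dehydrogenase, fell by 0.91 and 1.24 in newly synthesized and steady-state RNA. LYS9 and LYS1, the saccharopine dehydrogenases of the last steps, fell by 0.96 and 1.73 and by 0.53 and 0.97.

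Branched-chain genes showed a wide span, with ILV5 near 0 and LEU9 near the bottom of the members. 6 of 10 fell in newly synthesized RNA (median -0.54) and 8 of 10 in steady-state RNA (median -0.77). With equal S. cerevisiae medians these medians became 0.28 and 0.50.

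ILV5 (YLR355C), the reductoisomerase shared by the isoleucine and valine routes, had 1349.7 and 1068 units in newly synthesized RNA with rapamycin, against 1180.2 and 1237 with DMSO. Steady-state signals of ILV5 were 2389 and 3049.8 with rapamycin, against 3005 and 3333 with DMSO. The treatments overlapped in both fractions, with changes of -0.01 ± 0.22 (adjusted p = 0.97) and -0.23 ± 0.22 (adjusted p = 0.32). ILV6, the regulatory subunit of acetolactate synthase, fell in newly synthesized RNA (-0.52, adjusted p = 0.031) and changed by -0.44 in steady-state RNA (adjusted p = 0.058). ILV2, the catalytic subunit of that enzyme, fell by 0.70 and 0.78. ILV3, the dihydroxyacid dehydratase, fell by 0.56 and 0.86. ILV1, the threonine deaminase that opens the isoleucine route, fell by 0.83 and 1.56.

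The paralogs LEU4 and LEU9 encode alpha-isopropylmalate synthase, the entry to leucine. LEU4 had 1916 and 2124 units in newly synthesized RNA with rapamycin, against 2380.2 and 2696 with DMSO. In steady-state RNA, LEU4 had 2159 and 2296 with rapamycin, against 3476 and 4131 with DMSO. Both rapamycin arrays were lower in each fraction, and the steady-state change was the one called (-0.33 ± 0.21, adjusted p = 0.15, and -0.77 ± 0.21, adjusted p = 0.0013). LEU9 (YOR108W) had 397 and 433 units in newly synthesized RNA with rapamycin, against 843 and 923 with DMSO. Steady-state signals of LEU9 were 602 and 816 with rapamycin, against 2274 and 2878 with DMSO. LEU9 fell 2.13-fold (-1.09 ± 0.22, adjusted p = 9.3e-05) and 3.65-fold (-1.87 ± 0.22, adjusted p = 5.5e-09). LEU1, the isomerase of the next step, changed by -0.28 in newly synthesized RNA (adjusted p = 0.22) and fell by 0.72 in steady-state RNA.

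BAT1 and BAT2 encode the mitochondrial and the cytosolic branched-chain aminotransferase. BAT1 had 1917 and 1916 units in newly synthesized RNA with rapamycin, against 2245 and 2417 with DMSO. In steady-state RNA, BAT1 had 2807 and 3437 with rapamycin, against 3692 and 5558 with DMSO. The steady-state change was called (-0.54 ± 0.22, adjusted p = 0.023) and the other was not (-0.28 ± 0.22, adjusted p = 0.23), and the call was lost without steady-state DMSO replicate 2 or rapamycin replicate 1. BAT2 had 818 and 873 units in newly synthesized RNA with rapamycin, against 1440.2 and 1518 with DMSO. Steady-state signals of BAT2 were 879 and 1042 with rapamycin, against 2051 and 2701 with DMSO. BAT2 fell in both fractions (-0.81 ± 0.22, adjusted p = 0.0015, and -1.30 ± 0.22, adjusted p = 1.7e-06).

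Aromatic genes changed close to the genome as a whole in steady-state RNA. 8 of 10 fell in newly synthesized RNA (median -0.68) and 10 of 10 in steady-state RNA (median -1.17, as for all genes). With equal S. cerevisiae medians the medians were 0.15 and 0.10.

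The route opens with the DAHP synthases ARO3 and ARO4, which are inhibited by phenylalanine and by tyrosine. ARO3 had 306 and 319 units in newly synthesized RNA with rapamycin, against 489 and 511 with DMSO. In steady-state RNA, ARO3 had 367 and 287 with rapamycin, against 515 and 577 with DMSO. ARO3 fell in both fractions (-0.68 ± 0.22, adjusted p = 0.0053, and -0.75 ± 0.22, adjusted p = 0.0017), with the smallest steady-state fall of the aromatic genes. ARO4 had 479.9 and 479 units in newly synthesized RNA with rapamycin, against 841 and 801 with DMSO. Steady-state signals of ARO4 were 555 and 511 with rapamycin, against 950.1 and 1196 with DMSO. ARO4 also fell in both (-0.77 ± 0.21, adjusted p = 0.0019, and -1.002 ± 0.21, adjusted p = 6.2e-05).

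ARO1, the multifunctional enzyme of the steps that follow, had 921 and 953 units in newly synthesized RNA with rapamycin, against 1011 and 1088 with DMSO. In steady-state RNA, ARO1 had 1228 and 1542 with rapamycin, against 2281 and 3020.4 with DMSO. Its change in newly synthesized RNA was the smallest of the aromatic genes and was not called (-0.16 ± 0.22, adjusted p = 0.48), while its steady-state RNA fell by 0.93 ± 0.22 (adjusted p = 2.0e-04). ARO7, the chorismate mutase that leads to phenylalanine and tyrosine, had 179 and 209 units in newly synthesized RNA with rapamycin, against 393 and 403 with DMSO. Steady-state signals of ARO7 were 378 and 702 with rapamycin, against 1140.3 and 1190.3 with DMSO. ARO7 fell 2.06-fold (-1.04 ± 0.24, adjusted p = 3.0e-04) and 2.26-fold (-1.18 ± 0.24, adjusted p = 2.5e-05).

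TRP4, the anthranilate phosphoribosyltransferase, had 128 and 149 units in newly synthesized RNA with rapamycin, against 232 and 293 with DMSO. In steady-state RNA, TRP4 had 227 and 311 with rapamycin, against 621 and 912 with DMSO. It had the largest steady-state fall of the aromatic genes (-1.50 ± 0.23, adjusted p = 4.1e-07), beside -0.92 ± 0.23 in newly synthesized RNA (adjusted p = 7.9e-04). The other tryptophan genes had larger changes in steady-state RNA as well. TRP2 and TRP3, which together form anthranilate synthase, changed by -0.34 (adjusted p = 0.17) and -0.47 (adjusted p = 0.043) in newly synthesized RNA and fell by 1.16 and 1.46 in steady-state RNA. TRP5, the tryptophan synthase, fell by 0.50 and 1.26. ARO2, the chorismate synthase, fell by 0.68 and 0.84, and the aminotransferase ARO8 by 0.71 and 1.20.

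Threonine genes lay above the median of all genes throughout. 3 of 5 fell in newly synthesized RNA (median -0.57) and 5 of 5 in steady-state RNA (median -0.72), and all 5 had smaller falls than the median gene in both fractions. Equal S. cerevisiae medians gave 0.26 and 0.55.

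HOM3, the aspartate kinase that opens the route, had 385 and 342 units in newly synthesized RNA with rapamycin, against 424 and 483 with DMSO. Steady-state signals of HOM3 were 619.6 and 829 with rapamycin, against 1138 and 1366 with DMSO. The steady-state fall was called (-0.80 ± 0.22, adjusted p = 0.0011) and the newly synthesized change was not (-0.32 ± 0.22, adjusted p = 0.17). HOM2, the semialdehyde dehydrogenase, had 1264 and 1265 units in newly synthesized RNA with rapamycin, against 1822 and 1921 with DMSO. In steady-state RNA, HOM2 had 1204 and 1111 with rapamycin, against 1628 and 1584 with DMSO. HOM2 fell by 0.57 ± 0.21 (adjusted p = 0.015) and 0.47 ± 0.21 (adjusted p = 0.035), and the steady-state call was lost without DMSO replicate 1 or rapamycin replicate 2.

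THR1, the homoserine kinase, had 929.6 and 829 units in newly synthesized RNA with rapamycin, against 1417 and 1402 with DMSO. Steady-state signals of THR1 were 615 and 642 with rapamycin, against 1093 and 1236 with DMSO. It had the largest falls of the pathway in both fractions (-0.68 ± 0.21, adjusted p = 0.0046, and -0.89 ± 0.21, adjusted p = 2.5e-04). THR4, the threonine synthase, fell by 0.57 and 0.72. HOM6, the homoserine dehydrogenase, changed by -0.38 in newly synthesized RNA (adjusted p = 0.096) and fell by 0.67 in steady-state RNA.

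The asparagine synthetases ASN1 and ASN2 had unlike changes: 1 of the 2 fell in each fraction, and their median was 0.48 in both with equal S. cerevisiae medians. ASN1 (YPR145W) had 4551 and 4978 units in newly synthesized RNA with rapamycin, against 3987 and 4693 with DMSO. In steady-state RNA, ASN1 had 8274 and 9318 with rapamycin, against 7484 and 10945 with DMSO. The treatments overlapped in both fractions and no change was called (0.14 ± 0.22, adjusted p = 0.56, and -0.04 ± 0.22, adjusted p = 0.85). ASN1 had the highest change of the 40 in both, with 96.8% and 95.4% of all genes below it. ASN2 had 950.0 and 990.0 units in newly synthesized RNA with rapamycin, against 1581 and 1856 with DMSO. Steady-state signals of ASN2 were 842 and 867 with rapamycin, against 2160.4 and 2841 with DMSO. ASN2 fell 1.77-fold (-0.82 ± 0.22, adjusted p = 0.0013) and 2.90-fold (-1.54 ± 0.22, adjusted p = 1.1e-07).

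Both serine members fell in both fractions, and their median was 0.12 and 0.16 with equal S. cerevisiae medians. SER33, the 3-phosphoglycerate dehydrogenase, had 263 and 234 units in newly synthesized RNA with rapamycin, against 443 and 464 with DMSO. Steady-state signals of SER33 were 354 and 546 with rapamycin, against 1208 and 1570.3 with DMSO. The falls were 0.87 ± 0.23 (adjusted p = 0.0011) and 1.65 ± 0.23 (adjusted p = 7.0e-08). SER1, the phosphoserine aminotransferase, had 483 and 468 units in newly synthesized RNA with rapamycin, against 653 and 733 with DMSO. In steady-state RNA, SER1 had 585 and 719.5 with rapamycin, against 892 and 1035 with DMSO. SER1 fell by 0.54 ± 0.22 (adjusted p = 0.022) and 0.57 ± 0.22 (adjusted p = 0.015).

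SER3, a paralog of SER33 that is not one of the 40, had 223 and 209 units in newly synthesized RNA with rapamycin, against 159 and 198 with DMSO. Steady-state signals of SER3 were 409 and 628 with rapamycin, against 444 and 722 with DMSO. It was not called in either fraction (0.28 ± 0.24, adjusted p = 0.26, and -0.16 ± 0.24, adjusted p = 0.53).

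Within 6 pairs of paralogs, the ratio of the members on each array does not depend on the scaling shift. The loess curve varies with signal and can change this ratio, and ratios under that curve are not given here. The log2 ratio of ASN1 over ASN2 was 0.96 higher with rapamycin than with DMSO in newly synthesized RNA and 1.49 higher in steady-state RNA. LEU4 over LEU9 was 0.76 and 1.10 higher, LYS20 over LYS21 0.72 and 0.70 higher, and BAT1 over BAT2 0.53 and 0.75 higher. SER33 over SER3 changed by -1.15 and -1.49. The sign of each value depends on which gene of the pair is named first. ARO3 over ARO4 moved least, by 0.10 and 0.25. For each pair and fraction but ARO3 and ARO4 in newly synthesized RNA, the ratios with rapamycin lay apart from those with DMSO. An exact two-sided permutation test gave p = 0.333 in those cases, the smallest that 2 arrays against 2 allow, and 0.667 for ARO3 and ARO4 in newly synthesized RNA. Paralogs can share hybridization, and this was not tested.

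**Figure D3:**
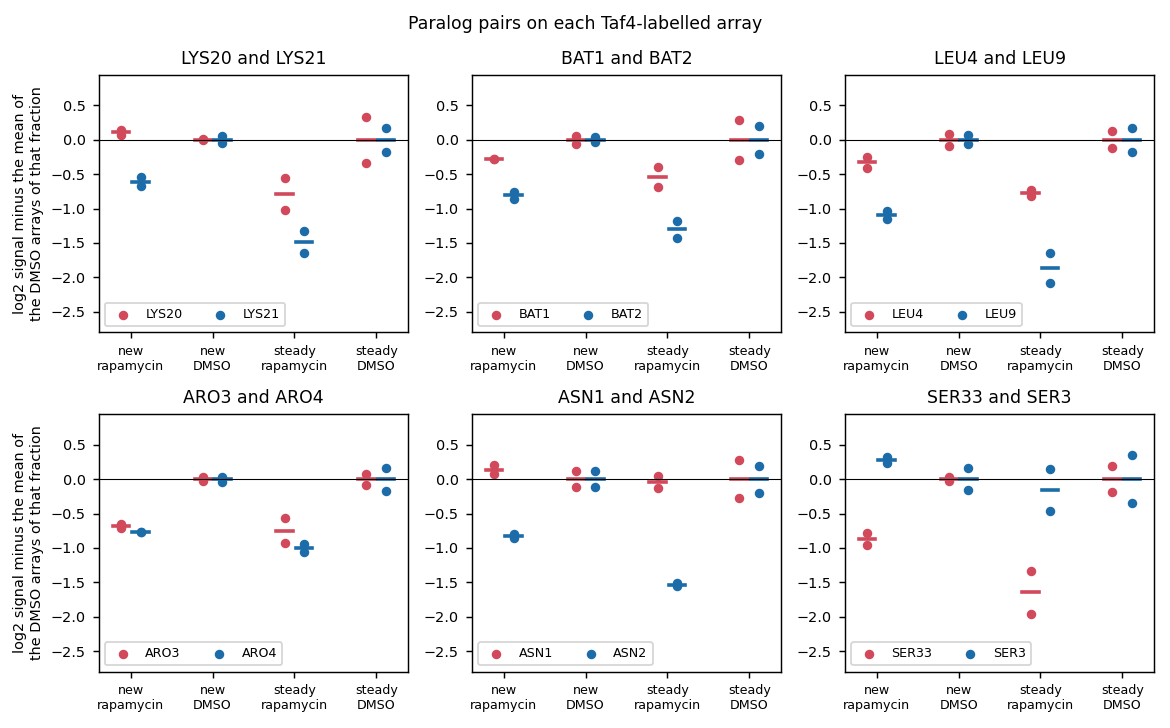
Log2 signal of each gene of 6 paralog pairs on each of the 8 Taf4-labelled arrays, minus that gene's mean over the DMSO arrays of the same fraction. Points are arrays and bars are group means. ASN2, LEU9, LYS21, BAT2 and SER33 sit lower with rapamycin than their partners, and ARO3 and ARO4 lie close together.

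Relative to the spike-in, the steady-state change was below the newly synthesized change in 36 of 40 members and in 82.7% of all genes. This order depended on the scaling: with equal S. cerevisiae medians it held in 19 of 40, and the median difference was -0.0078 for members and -0.05 for all genes. The difference of the 2 changes, tested as an interaction, was called for 0 members, and for 0.138% (newly synthesized change lower) and 1.19% (higher) of all genes. By limma 13 members had an unadjusted p under 0.05, and the lowest adjusted p was 0.071, for TRP3 (0.98 ± 0.30). HIS7 had the largest difference (1.02 ± 0.32, adjusted p = 0.075), and HIS6 was the lowest (-0.60 ± 0.30, adjusted p = 0.19). With equal S. pombe medians the median difference was 0.44 for members and 0.39 for all genes. With the loess curve the count of members called rose to 28, and these medians were 1.07 and 0.86. The share of all genes called with the curve is not given here. Without steady-state DMSO replicate 1 both medians were 0.56. Without steady-state rapamycin replicate 2 they were 0.60 for members and 0.56 for all genes. The spike-in itself differed between fractions. Of 1397 S. pombe probe sets, 0 were called in newly synthesized RNA by limma with rapamycin against DMSO (45 at an unadjusted p under 0.05), whereas 306 were lower and 451 higher in steady-state RNA. Its part in the steady-state changes was not tested.

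Across the 40 members the changes in the 2 fractions had Pearson's r = 0.70 and Spearman's rho = 0.65, against 0.75 and 0.69 over all 4360 genes. These are descriptions across genes measured on the same 8 arrays, and genes are not independent replicates. The standard deviation of the change among members was 0.35 in newly synthesized RNA and 0.50 in steady-state RNA, against 0.44 and 0.59 over all genes.

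**Figure D4:**
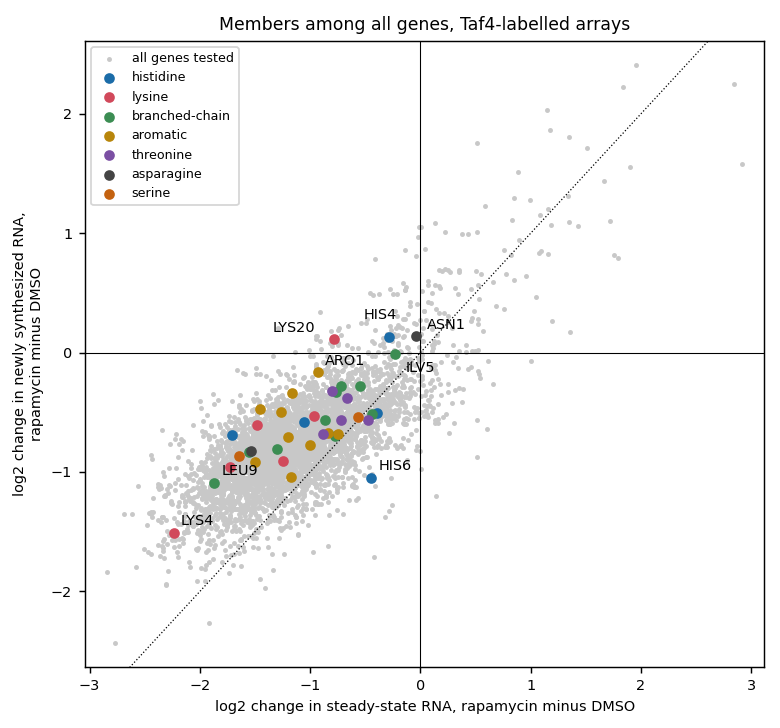
Change with rapamycin against DMSO in newly synthesized RNA (vertical) and steady-state RNA (horizontal), both log2, for the 40 members (colours) over all genes tested (grey). The dotted line marks equal changes. 36 of the 40 members lie above it, and HIS6 is the one farthest below it.

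The labelled and total RNA can also be set against each other within a treatment. With rapamycin, newly synthesized signals were below steady-state signals for 18 members and above for 1, where 71.4% of all genes were below and 1.1% above, with a median of -0.37 for members and -0.83 for all genes. With DMSO they were below for 29 members and above for 2, where 83.1% were below and 2.57% above, with a median of -0.81 against -1.27. The count of 18 fell to 6 without steady-state rapamycin replicate 2 and to 11 without newly synthesized rapamycin replicate 1. These differences are relative to the labelled spike-in, whose own probe sets differed between fractions. Of the 1397, newly synthesized signals were lower for 53 and higher for 93 with rapamycin, and lower for 363 and higher for 584 with DMSO. Their part in the members' differences was not tested. Scaled to equal S. cerevisiae medians, 28 members were higher in newly synthesized RNA with rapamycin and 26 with DMSO. The median difference on that scale was 0.56 for members in both treatments. For all genes it was 0.11 with rapamycin and 0.10 with DMSO, and the share of all genes called is not given here. With equal S. pombe medians, the member above with rapamycin was THR1 (0.48 ± 0.21, adjusted p = 0.041). The 2 above with DMSO were ILV6 (0.53 ± 0.22, adjusted p = 0.025) and HIS6 (0.46 ± 0.21, adjusted p = 0.041). No member was above in either treatment with the loess curve or with the brighter S. pombe probe sets. The count above with rapamycin was 0 without either newly synthesized rapamycin replicate or either newly synthesized DMSO replicate, and the count above with DMSO was 0 without either newly synthesized DMSO replicate. HIS7 was the lowest with DMSO, at -1.88 ± 0.23, and ARO7 the lowest with rapamycin, at -1.41 ± 0.24.

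**Figure D5:**
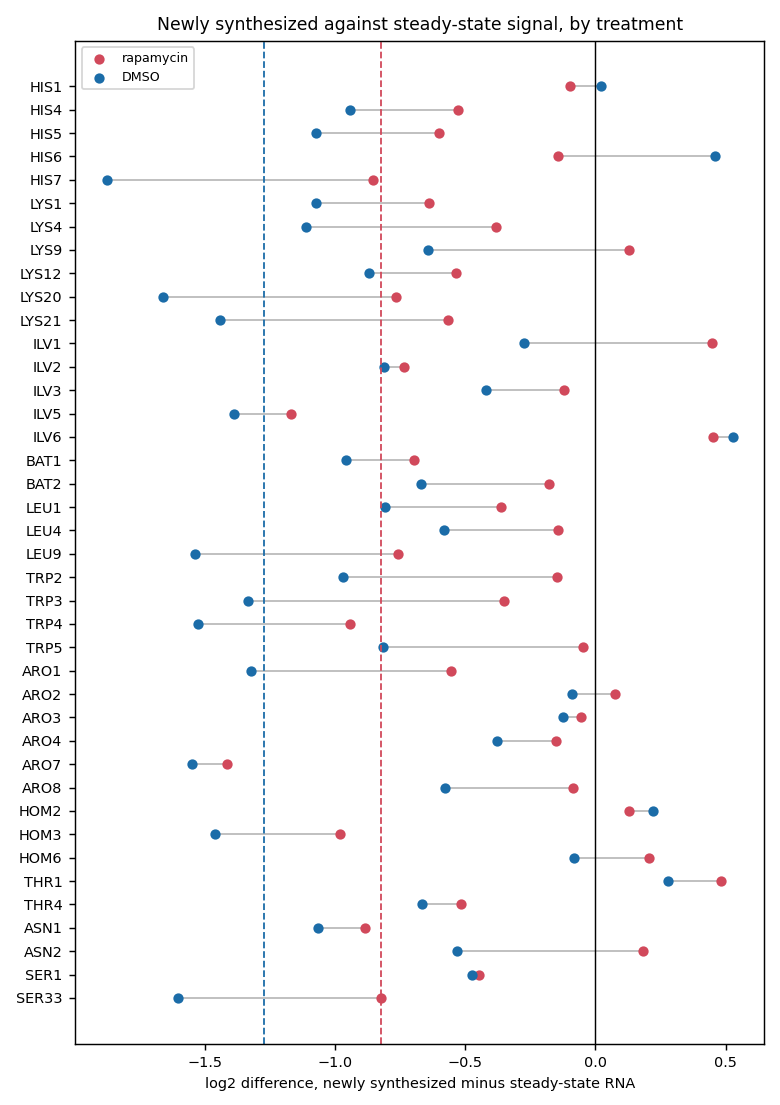
Log2 difference of newly synthesized minus steady-state signal for each member, with rapamycin (red) and with DMSO (blue), from the limma fit. Dashed lines are the medians of all genes (-0.83 with rapamycin and -1.27 with DMSO). Most members lie to the right of the line of their own treatment.

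Of 12 further enzymes of the same pathways LYS2 was below the filter. Of the 11 tested, 7 fell in newly synthesized RNA (63.6%, beside 79.4% of all genes; median -0.71) and 9 in steady-state RNA (81.8%, beside 86.8%; median -1.04), and 0 rose in either by limma (8 and 9 of the 11 had an unadjusted p under 0.05). Equal S. cerevisiae medians turned both medians positive (0.12 and 0.23). The largest falls were those of AAT1, the mitochondrial aspartate aminotransferase, in newly synthesized RNA (-1.13 ± 0.22, adjusted p = 6.2e-05) and of HIS2, the histidinol phosphatase, in steady-state RNA (-1.60 ± 0.22, adjusted p = 6.9e-08).

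Of 12 regulators of these pathways, 8 fell and 1 rose in newly synthesized RNA, where 79.4% of all genes fell and 1.79% rose. In steady-state RNA 10 fell and 1 rose, where 86.8% of all genes fell and 1.42% rose. Scaled to equal S. cerevisiae medians, 1 fell and 3 rose in newly synthesized RNA, beside 8.92% and 15.6% of all genes. On that scale 4 fell and 3 rose in steady-state RNA, beside 18.1% and 32.0% of all genes. GCN4 RNA had 2813 and 2912 units in newly synthesized RNA with rapamycin, against 2685 and 3031 with DMSO. Steady-state signals of GCN4 were 4555 and 5075 with rapamycin, against 5106 and 5761 with DMSO. It was not called (0.00 ± 0.21, adjusted p = 0.98, and -0.17 ± 0.21, adjusted p = 0.44). Gcn4 is controlled mainly in translation, which these arrays do not measure. GCN2 fell by 0.57 ± 0.24 (adjusted p = 0.029, and up to 0.30 with 1 array left out) and 1.73 ± 0.24 (adjusted p = 7.3e-08). PCL5, a cyclin that directs Gcn4 to degradation and is itself a Gcn4 target, was the regulator that rose. It had 817 and 793 units in newly synthesized RNA with rapamycin, against 365 and 380.0 with DMSO, and 1258 and 1536 in steady-state RNA with rapamycin, against 667 and 922 with DMSO. PCL5 rose 2.16-fold (1.11 ± 0.22, adjusted p = 7.1e-05) and 1.77-fold (0.83 ± 0.22, adjusted p = 8.0e-04). BAS1, an activator of histidine and purine genes, had the largest fall of the regulators (-1.51 ± 0.23 and -2.11 ± 0.23).

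Of 12 amino acid permeases, 5 fell and 2 rose in newly synthesized RNA, where 79.4% of all genes fell and 1.79% rose. In steady-state RNA 8 fell and 0 rose by limma, where 86.8% of all genes fell and 1.42% rose. Scaled to equal S. cerevisiae medians, 1 fell and 5 rose in newly synthesized RNA, beside 8.92% and 15.6% of all genes. On that scale 2 fell and 6 rose in steady-state RNA, beside 18.1% and 32.0% of all genes. GAP1, the general amino acid permease, had 124 and 129 units in newly synthesized RNA with rapamycin, against 63.6 and 63.5 with DMSO. It rose 1.99-fold (1.00 ± 0.21, adjusted p = 1.5e-04), and its steady-state change was 0.37 ± 0.21 (adjusted p = 0.094). AGP1, a permease of broad specificity, had 256 and 246 units in newly synthesized RNA with rapamycin, against 122 and 155 with DMSO. It rose 1.82-fold (0.87 ± 0.22, adjusted p = 8.5e-04), with 0.04 ± 0.22 in steady-state RNA (adjusted p = 0.86). HIP1, the histidine permease, had the largest fall (-1.46 ± 0.23 and -1.85 ± 0.23).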

How the data were processed

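The labels put 1 sample on each array. The authors deposited linear intensity values, made with Affymetrix Expression Console 1.4.1 per the submitters' processing notes. Summary method, background correction and scaling were not given in the sources used here. The values themselves show a common level: the trimmed mean over all probe sets was 500.2 to 500.4 on the Taf4-labelled arrays. On the Taf5-labelled arrays it was 100.0 to 100.1. After taking log2, with no pseudocount, all arrays were shifted to the same S. pombe median. Genes were represented by their brightest probe set, and the dimmest 20% were dropped. Of 10928 probe sets, 7244 had 1 gene symbol in the platform annotation, 1 had several and 3683 had none. Names were taken from assembly R64 through Entrez identifiers. The 8 Taf4-labelled arrays were fitted as 4 groups with lmFit and eBayes of limma 3.58.1 (R 4.3.3), leaving 4 residual degrees of freedom. Tests were two-sided, and each of 5 contrasts was adjusted by Benjamini-Hochberg over 4360 genes. The fit was tested on simulated signals with known changes in a small part of the genes. The scaling was not part of that test. The number of arrays limits the precision.

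The members, lists and tests were chosen with earlier results of these data known. Per-array values are given for the highest and lowest change of each pathway in each comparison with rapamycin, and for both genes of 6 paralog pairs. From the other lists, genes called higher, the largest fall, GCN4 and GCN2 are named. The remaining members are named with their changes. Alternatives were the deposited scaling, equal S. cerevisiae medians, a loess curve (span 0.7) through the S. pombe probe sets, the brighter of those probe sets alone, dropping no genes or 40%, the mean of probe sets, a variance trend with intensity, each fraction's 4 arrays alone, a replicate block and leaving out each array.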

Additional observations from a re-analysis of the deposited data

Results flagged for a closer look

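For LYS20, a homocitrate synthase gene, both rapamycin arrays lay above both DMSO arrays in newly synthesized RNA and below both in steady-state RNA. The newly synthesized change was not called (0.11 ± 0.23, adjusted p = 0.65 by limma), and the steady-state fall was. The newly synthesized change exceeded the steady-state change by 0.90 ± 0.33 on the log2 scale. In the limma interaction test this did not pass (adjusted p = 0.11). Scaled to equal S. cerevisiae medians, both changes were positive and called (0.94, adjusted p = 8.9e-04, and 0.48, adjusted p = 0.013).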

How the results depend on the processing

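Each alternative changed 1 choice. Counts in this section are of members alone. For the alternatives, shares of all genes are given above only for rapamycin against DMSO with equal S. cerevisiae medians. The median of all genes moved as well, from -0.78 to -0.40 as deposited in newly synthesized RNA and from -1.17 to -0.64 in steady-state RNA. These counts therefore do not set the members apart from other genes. In newly synthesized RNA, rapamycin against DMSO, members called lower numbered 12 as deposited, 1 with equal S. cerevisiae medians and 18 with the loess curve, and 14 to 29 with 1 array left out. Members called higher numbered 3 as deposited and 10 with equal S. cerevisiae medians. Their median change was -0.19 as deposited, 0.25 with equal S. cerevisiae medians, -0.49 with the loess curve, -0.53 with the brighter S. pombe probe sets and -0.66 to -0.53 with 1 array left out. Its distance from the median of all genes was 0.17 with the 40% filter, which drops 2 members, LYS1 and LYS4. In steady-state RNA, 21 were lower as deposited and 6 with equal S. cerevisiae medians, and 1 and 21 were higher. The median was -0.38, 0.36, -1.48 and -1.05 under the 4 scalings in that order, and -1.12 to -0.79 with 1 array left out, and its distance from all genes was 0.028 with the loess curve. In the interaction, 1 member was called higher as deposited, 28 with the loess curve, 2 with the brighter probe sets, 3 with the intensity trend, and 0 to 11 with 1 array left out. Of newly synthesized against steady-state signal with rapamycin, 11 were lower as deposited, 1 with equal S. cerevisiae medians and 6 to 20 with 1 array left out, and 8, 28, 0 and 0 were higher under the 4 scalings, and 0 to 3 with 1 array left out. With DMSO 1 was lower with equal S. cerevisiae medians and 22 to 30 with 1 array left out, and 7, 26, 0 and 0 were higher under the 4 scalings, and 0 to 2 with 1 array left out. The causes were not tested, except that equal S. cerevisiae medians remove any change common to all genes by construction. The deposited values of these arrays already shared nearly the same trimmed mean over the probe sets of both species. How far that removes a common change was not tested. With the replicate block, 13 members were called higher in the interaction and 3 in newly synthesized against steady-state signal with rapamycin. Deviations of same-numbered arrays correlated at -0.018 to 0.174, not all above 0.1, and the labels do not say that a number marks a shared culture, so the numbers were not taken as pairs. With equal S. cerevisiae medians 31 members were above 0 in newly synthesized RNA and 29 in steady-state RNA. Those that turned positive and were called in at least 1 of the 2 scalings had log2 changes of, in newly synthesized RNA, HIS1 0.32, HIS5 0.24, HIS7 0.13, LYS1 0.29, LYS21 0.22, ILV2 0.12, ILV3 0.26, ILV5 0.82, ILV6 0.31, BAT1 0.54, BAT2 0.017, LEU1 0.55, LEU4 0.50, TRP3 0.35, TRP5 0.33, ARO1 0.66, ARO2 0.15, ARO3 0.15, ARO4 0.0503, ARO8 0.11, HOM2 0.26, HOM3 0.51, THR1 0.14, THR4 0.26, ASN2 0.0038 and SER1 0.28, and in steady-state RNA, HIS1 0.88, HIS4 0.98, HIS5 0.22, HIS6 0.82, LYS1 0.30, LYS12 0.026, LYS20 0.48, ILV2 0.49, ILV3 0.40, ILV5 1.04, ILV6 0.83, BAT1 0.72, LEU1 0.55, LEU4 0.50, TRP2 0.10, TRP5 0.0035, ARO1 0.34, ARO2 0.43, ARO3 0.52, ARO4 0.27, ARO7 0.092, ARO8 0.064, HOM2 0.79, HOM3 0.47, HOM6 0.60, THR1 0.38, THR4 0.55, ASN1 1.22 and SER1 0.70. As deposited, 7 steady-state changes were above 0, of which those called in at least 1 of the 2 scalings were HIS6 0.085, HOM2 0.056 and ASN1 0.49. No member was called higher with rapamycin against DMSO without a change of scaling.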
